A study of Homo sapiens with 4 samples.

Results

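The 10 genes described here encode regulators of apoptosis that are known to be made in several splice isoforms: MCL1, BCL2L1, BCL2L11, BCL2L2, BAX, CASP2, CASP9, FAS, CFLAR and XIAP. They were chosen by name, without use of their measured values, and all 10 had a row in a table of 18276 genes. Their RNA was measured in 4 libraries of MDA-MB-231 cells, a human triple-negative breast cancer line. In 2 SF3B6 IP libraries RNA was recovered with 5 µg of an antibody against SF3B6, and 2 input libraries held the RNA of the lysate before recovery. All cells, those of the inputs included, had been irradiated at 400 mJ/cm2, which crosslinks RNA to bound protein, and the lysate had been cut with micrococcal nuclease. The design text calls the libraries of each pair biological replicates. A control IgG antibody appears in the protocols, but no IgG library was used here, so unspecific recovery has no measure of its own. MDA-MB-231 is taken from the titles, since the line's name ends in a different digit in each sample's characteristics.

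Apoptosis through the mitochondrial route is set by the BCL2 family. Survival members hold killer members in check, and once BAX opens the mitochondrial outer membrane, caspase-9 is activated. A second route starts at death receptors such as FAS on the cell surface. Alternative splicing makes forms of opposite effect from several of these genes. BCL2L1 gives the long survival form BCL-xL and the short killer form BCL-xS, and MCL1, CASP2 and CASP9 likewise have long and short forms. Long and short forms are also known for CFLAR, and these are not meant here as opposites. SF3B6 belongs to SF3b, a complex within the U2 snRNP that recognises the branch point of introns, and drugs that act on SF3b are known to shift MCL1 toward its short form. The tables hold 1 value per gene and library, so the isoforms of a gene were not separated in anything that follows.

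The IP libraries were shallow, with 55492 counts in genes for SF3B6 IP 1 and 30431 for SF3B6 IP 2, against 317190 for input 1 and 519836 for input 2. At this depth 1 count equals 22.02 and 43.6 CPM in the IP libraries, and 3.52 and 2.04 CPM in the inputs (CPM is the count scaled to a library size common to all libraries, after TMM normalisation over the tested genes). The 2 IP libraries differed from each other by 4.33 times the chi-square that counting alone gives (576 genes), and the inputs by 1.72 times (6053 genes). Of 7 genes fixed as expressed by the line, VIM, CD44, AXL, CAV1, MSN and FN1 had counts in every input, while SPARC had 0 and 2 counts in IP, against 0 and 2 in the inputs. These 7 genes summed to 3787 and 3747 CPM in IP, against 5197 and 5561 CPM in input. Of 6 genes that the line is known to lack or hold at a low level, CDH1, GATA3, KRT5 and ESRP1 had rows, with 132 and 43.6 CPM in all in IP (6 and 1 counts), against 17.6 and 36.7 CPM in input (5 and 18 counts). KRT5 had 4 counts in SF3B6 IP 1 and ESRP1 1, while both stood at 0 in SF3B6 IP 2 and in the inputs. Of 5 blood cell genes only HBA1 and CD14 had rows. HBA1 had 1 and 0 counts in IP against 0 and 0 in input, and CD14 had 2 and 0 against 9 and 7. The part that any of these genes had in the results was not tested.

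By RefSeq annotation of GRCh38.p14, the build that the submitters' processing notes also name (as hg38), the positions of the 10 genes are as follows. BCL2L1 spans chromosome 20, 31664452 to 31723963, on the minus strand, and MCL1 spans chromosome 1, 150574558 to 150579610. CFLAR (201116164 to 201176687) and BCL2L11 (111120914 to 111168445) are both on chromosome 2, on the plus strand. BAX lies on chromosome 19 (48954875 to 48961798), BCL2L2 on chromosome 14 (23306833 to 23311751) and XIAP on chromosome X (123859708 to 123913972). The remaining loci are CASP2 on chromosome 7 (143288351 to 143307696), CASP9 on chromosome 1 (15491401 to 15524912) and FAS on chromosome 10 (88964050 to 89017059). Curated RefSeq messengers numbered from 2 for BCL2L2 to 18 for BCL2L11, with a median of 5 over the 10 genes and of 2 over 19443 protein-coding genes. BCL2L1 had 10 of them, CFLAR 15 and MCL1 3. The rule asks for known isoforms, so this excess is part of how the genes were chosen.

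With TMM scaling, 6 of the 10 genes had enough counts to be tested and 0 of these 6 were called different between SF3B6 IP and input, beside 4.06% of all tested genes. Summed, all 10 genes held 38 and 28 counts in IP against 313 and 563 in input. That is 0.0685% (95% Wilson interval 0.0499 to 0.0940) and 0.0920% (0.0637 to 0.133) of the counts in genes in SF3B6 IP 1 and 2. In input 1 and 2 it is 0.0987% (0.0883 to 0.110) and 0.108% (0.0997 to 0.118). As shares, both IP libraries lay below both inputs. On the CPM scale the sum was 837 and 1220 in IP, against 1101 and 1148 in input, so the IP values enclosed those of the inputs. The ratio of pooled counts, IP over input, was 0.854 with TMM, with an exact interval from 0.655 to 1.10. With library totals it was 0.734 (0.563 to 0.943), a scale on which the median log2 fold change of all tested genes was -0.27. These intervals cover counting error only and leave out variation between replicates. They treat reads as independent, which reads without molecular identifiers need not be.

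The 6 genes that passed the filter on low counts were BCL2L1, MCL1, CFLAR, BCL2L2, BAX and XIAP, with calls at an adjusted p under 0.05 (edgeR). At an unadjusted p under 0.05 the count was also 0, beside 15.65% of all tested genes, and DESeq2 called 0, giving no adjusted p for 3 of them (background 1.06%). At 4.06% (edgeR, adjusted p) and 1.06% (DESeq2), 0 calls among 6 genes is usual. At 15.65% either 0 or 1 would be ordinary. By edgeR 2.7% of all 3668 tested genes were called higher and 1.36% lower. The median log2 fold change of the 6 was -0.37, and that of all tested genes was -0.06. Values ran from -1.24 for BCL2L2 to 0.33 for CFLAR, and 2 of the 6 were positive, against 1708 of 3668. BCL2L2 passed the filter through the inputs alone, so its part in the count of 6, the median and the range is a description. In the plot of all tested genes the 6 lie inside the grey field of genes without a call.

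**Figure D1:**
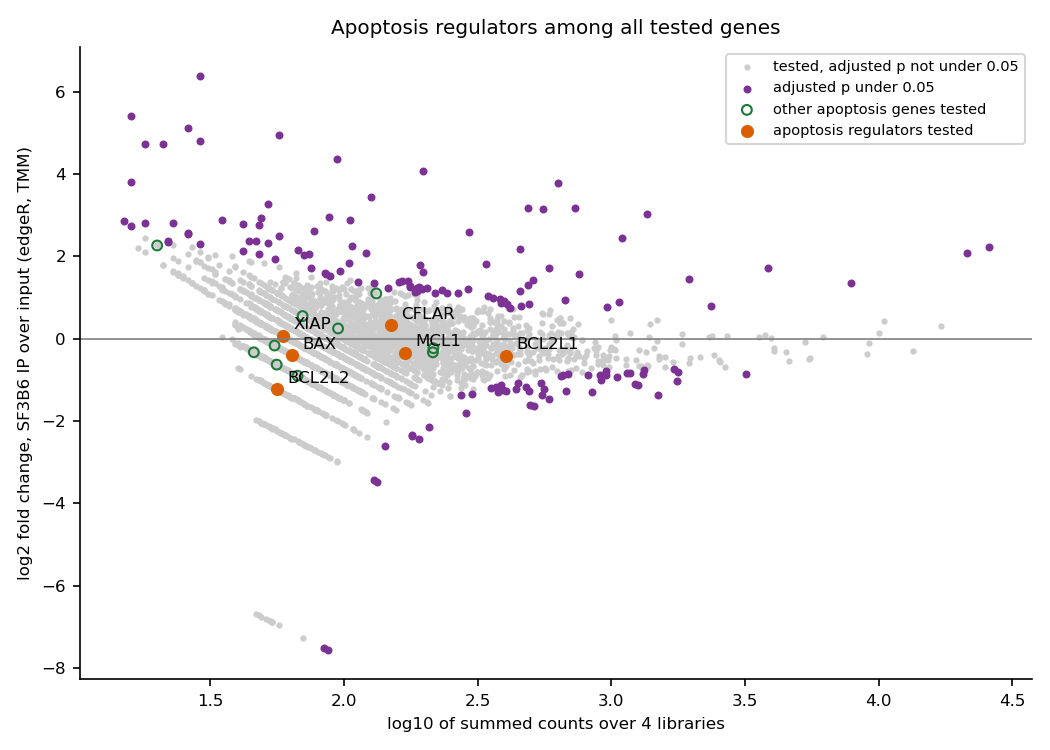
Each point is 1 of 3668 tested genes, with the log10 of its summed counts over 4 libraries on the x axis and its log2 fold change, SF3B6 IP over input, on the y axis. Orange points are the 6 tested apoptosis regulators, between -1.24 and 0.33, green rings are 10 other tested apoptosis genes, and purple points are the 149 genes with adjusted p under 0.05.

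Among the survival genes of the BCL2 family, BCL2L1 was the best counted. It had 16 and 9 counts in SF3B6 IP 1 and 2, against 140 and 237 in input 1 and 2. This equals 352 and 392 CPM in IP, against 493 and 483 CPM in input, so both IP libraries lay below both inputs. Its log2 fold change was -0.41 ± 0.28 (SE; edgeR adjusted p = 0.502), and the ratio of pooled counts was 0.752 (exact interval 0.480 to 1.13). The interval leaves room for equal recovery and for a fall to about the lower bound, and excludes, for counting error alone, a rise above 1.13-fold. At the pooled input share 33.3 IP counts would have been found, where 25 were. With library totals the pooled ratio was 0.646 (exact interval 0.413 to 0.969), below equal recovery for counting error alone. On that scale the median log2 fold change of all tested genes was also lower, at -0.27.

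MCL1 encodes a short-lived survival protein on which many breast cancer cells rely. It had 6 and 5 counts in IP against 60 and 98 in input, which is 132 and 218 CPM in IP and 211 and 200 CPM in input. SF3B6 IP 1 was the lowest library and SF3B6 IP 2 the highest, so the groups overlapped. The log2 fold change was -0.34 ± 0.44 (edgeR adjusted p = 0.798), with a pooled ratio of 0.789 (0.386 to 1.45).

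BCL2L2 encodes BCL-w, another survival protein of the family. It had 2 and 0 counts in IP, against 19 and 35 in input, and the pooled ratio was 0.420 (exact interval 0.0496 to 1.59). In CPM this is 44.0 and 0 in IP against 66.9 and 71.3 in input, both IP values being lower. The log2 fold change of -1.24 ± 0.93 was the lowest of the 6 but did not pass (edgeR adjusted p = 0.561), and 4.77 IP counts would match the input share. BCL2L2 passed the filter through the 2 inputs alone, where it is higher, so its value is a description and supports nothing further. Without SF3B6 IP 2 the value was -0.75, and without SF3B6 IP 1 no IP count was left.

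A readthrough gene overlaps BCL2L2 and an antisense gene is described for BCL2L1. Adding their counts turned the sign for BCL2L2 but not for BCL2L1. The readthrough gene BCL2L2-PABPN1 covers the whole BCL2L2 locus and had 6 and 1 counts in IP against 13 and 15 in input. This is 132 and 43.6 CPM in IP and 45.7 and 30.6 CPM in input, so SF3B6 IP 1 was the highest library and SF3B6 IP 2 lay between the inputs, and the gene did not pass the filter. The sources used here do not say how reads of the shared part were assigned. With the counts of both added, a setting chosen after the data had been seen, the log2 fold change of BCL2L2 turned to 0.31 ± 0.55 (edgeR adjusted p = 0.875). The joint counts were 8 and 1 in IP, against 32 and 50 in input. ABALON, which the table describes as a long non-coding RNA antisense to BCL2L1, had 6 and 3 counts in IP against 20 and 29 in input. It stood at 132 and 131 CPM in IP and at 70.4 and 59.1 CPM in input, both IP libraries above both inputs, with a log2 fold change of 1.05 ± 0.58 (edgeR adjusted p = 0.377). Whether reads were counted by strand is not known, and the extent of any overlap between ABALON and BCL2L1 was not established. Reads of either gene may have been counted for the other, which was not tested. The joint log2 fold change of BCL2L1 and ABALON was -0.15 ± 0.25 (edgeR adjusted p = 0.868). Both added genes were picked out after their values had been seen.

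**Figure D2:**
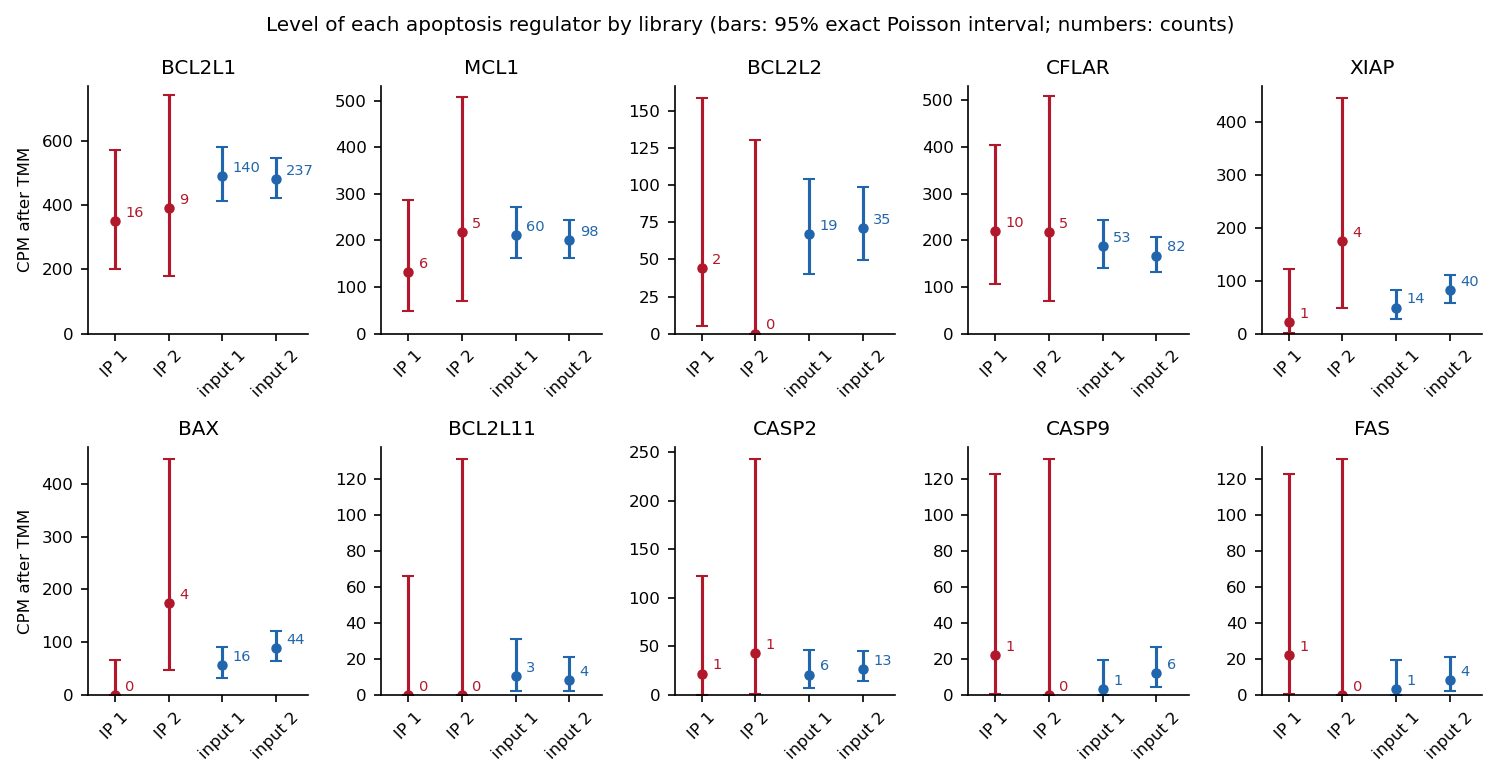
Each panel shows 1 gene, with the level in CPM after TMM normalisation on the y axis and the libraries SF3B6 IP 1, SF3B6 IP 2, input 1 and input 2 on the x axis. Points are single libraries, bars are 95% exact Poisson intervals (up to 3 counts where the count is 0) and the numbers are counts; IP intervals are wide, and for BCL2L1 they run from 201 to 572 and from 179 to 744 CPM.

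The killer genes of the family were thinly counted. BAX, whose protein forms the pore of the mitochondrial outer membrane, had 0 and 4 counts in IP against 16 and 44 in input. This is 0 and 174 CPM in IP and 56.3 and 89.7 CPM in input, so the IP libraries lay on either side of the inputs. At the pooled input share, SF3B6 IP 1 would have held 3.52 BAX counts and SF3B6 IP 2 1.78. Its log2 fold change of -0.40 ± 0.84 (edgeR adjusted p = 0.889) turned to 0.95 without SF3B6 IP 1 and to 0.085 with DESeq2's test, so its sign is not settled. BCL2L11 encodes BIM, a BH3-only protein that triggers BAX. No count fell on it in either IP library (0 and 0), against 3 and 4 in the inputs, where 0.618 IP counts would match the input share. A count of 0 allows up to 3 counts, which is 66.1 CPM in SF3B6 IP 1 and 131 CPM in SF3B6 IP 2, more than the inputs' 10.6 and 8.15 CPM, so a fall was not detectable.

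The 2 inhibitors of caspase activation had positive log2 fold changes with TMM that did not pass the test, and both turned negative with no filter (CFLAR -0.15, XIAP -0.40) and with the FPKM totals described further on. In these settings the median of all tested genes was also lower, at -1.23 and -1.65, against -0.06 with TMM. CFLAR encodes c-FLIP, which keeps caspase-8 inactive at death receptors. It had 10 and 5 counts in IP against 53 and 82 in input. At 220 and 218 CPM in IP and 187 and 167 CPM in input, it was the only one of the 6 tested genes with both IP libraries above both inputs. The log2 fold change was 0.33 ± 0.41 (edgeR adjusted p = 0.789) and the pooled ratio 1.26 (exact interval 0.686 to 2.15). XIAP, which binds and blocks active caspases, had 1 and 4 counts in IP against 14 and 40 in input, or 22.02 and 174 CPM in IP and 49.3 and 81.5 CPM in input. As for BAX, SF3B6 IP 1 lay below both inputs and SF3B6 IP 2 above both. Its log2 fold change was 0.07 ± 0.76 (edgeR adjusted p = 0.978), and it was -1.73 without SF3B6 IP 2, -0.059 with upper quartile scaling and -0.15 with library totals.

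Groups that did not overlap were no more than is usual in these libraries. BCL2L1 and BCL2L2 had both IP libraries below both inputs, and CFLAR had both above, which makes 3 of the 6 tested genes. BCL2L2 is in this count only as a description, since it passed the filter through the inputs alone. Among all tested genes 49.4% did not overlap, 28.5% with IP below and 20.9% with IP above.

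The caspases and FAS were near the limit of detection and did not pass the filter. CASP2, the caspase activated by the PIDDosome, had 1 and 1 counts in IP against 6 and 13 in input (pooled ratio 1.19, exact interval 0.135 to 4.95). CASP9, the initiator caspase of the mitochondrial route, had 1 and 0 against 1 and 6 (1.62, 0.0359 to 12.6). FAS, the death receptor, had 1 and 0 IP counts against 1 and 4 input counts (2.27, 0.0479 to 20.3). These intervals span more than a factor of 10, and neither a rise nor a fall could be seen. ACTA2 overlaps FAS on the opposite strand and had 1 and 0 counts in IP against 0 and 1 in input. With no filter on low counts, all 10 genes could be fitted and 0 were called, against a background of 1.17% of 18276 genes. The median log2 fold change of all genes was -1.23 in that fit. BCL2L1 then had the lowest adjusted p of the 10 (log2 fold change -0.89 ± 0.32, edgeR adjusted p = 0.233), while CASP2, CASP9 and FAS were at -0.21, 0.21 and 0.66 (edgeR adjusted p = 0.905, 0.938 and 0.876).

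**Figure D3:**
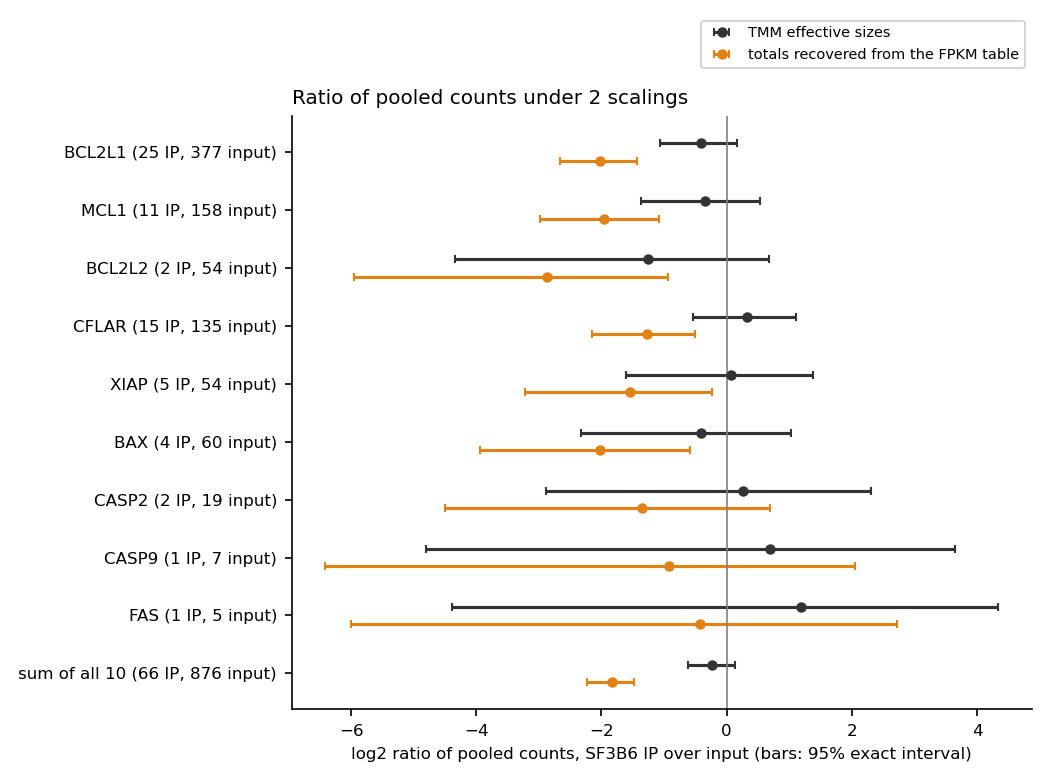
Points are log2 ratios of pooled counts, SF3B6 IP over input, on the x axis for 9 genes and for the sum of all 10, with 95% exact intervals as bars; BCL2L11, with 0 IP counts, is left out. Black uses effective sizes from TMM and orange the library totals behind the FPKM table; the sum has a ratio of 0.854 in the first and 0.279 in the second.

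By role, the 5 survival genes (BCL2L1, MCL1, BCL2L2, CFLAR and XIAP) together had 35 and 23 counts in IP against 286 and 492 in input. The 5 death genes (BAX, BCL2L11, CASP2, CASP9 and FAS) had 3 and 5 in IP against 27 and 71 in input. Death genes made up 7.89% (95% Wilson interval 2.72 to 20.8) and 17.9% (7.88 to 35.6) of the summed counts in SF3B6 IP 1 and 2. In input 1 and 2 they made up 8.63% (5.996 to 12.3) and 12.6% (10.1 to 15.6), within the IP values. BCL2L1 alone held 42.1% and 32.1% of the summed counts in IP, against 44.7% and 42.1% in input. CFLAR held 26.3% and 17.9% in IP, against 16.9% and 14.6% in input. MCL1 held 15.8% and 17.9% in IP, against 19.2% and 17.4% in input, and so stood above CFLAR in both inputs and below it in SF3B6 IP 1. XIAP took 2.63% and 14.3% in IP, against 4.47% and 7.10% in input, the IP shares resting on 1 and 4 counts.

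**Figure D4:**
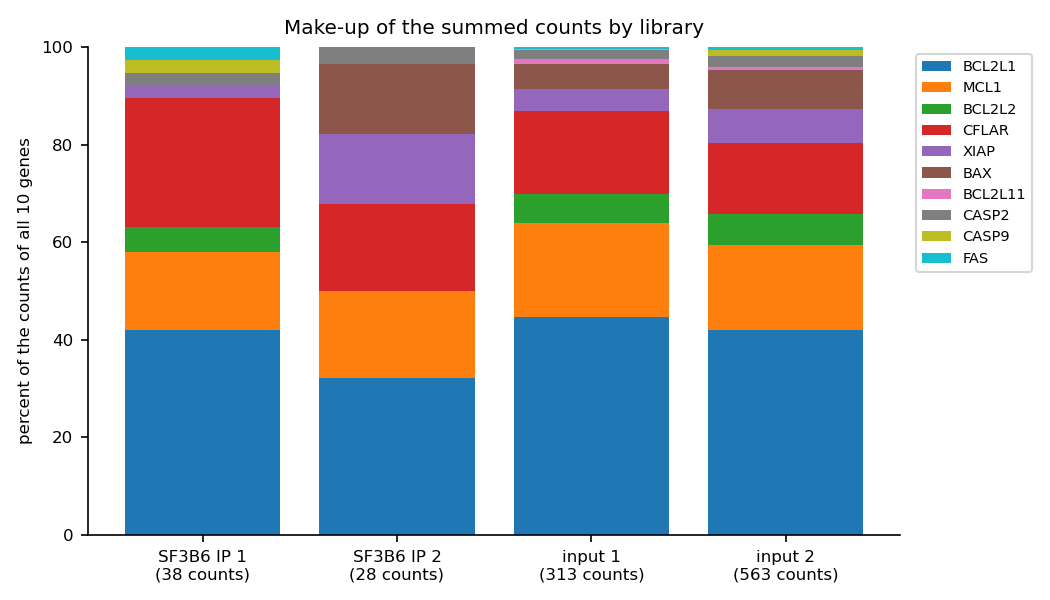
Bars give the share in percent of the counts of all 10 genes that each gene held in SF3B6 IP 1 (38 counts), SF3B6 IP 2 (28), input 1 (313) and input 2 (563). BCL2L1 was the largest part in every library, BAX was absent from SF3B6 IP 1, and BCL2L2 from SF3B6 IP 2.

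Levels of different genes can be set side by side only per length, in the authors' FPKM. The length behind FPKM was 5.36 times as large for CFLAR as for BCL2L1, and 0.616 times for BAX, so the order by FPKM is not that by counts. In FPKM, BCL2L1 averaged 4.66 ± 0.53 in IP and 18.9 ± 4.56 in input (SD, n = 2 libraries each), above every other gene in each library. MCL1 averaged 1.44 ± 0.23 FPKM in IP and 5.37 ± 1.15 in input. BAX, at 1.54 ± 2.18 FPKM in IP and 4.80 ± 2.66 in input, overlapped MCL1 in both groups. BCL2L2 came next in input, at 0.28 ± 0.39 FPKM in IP and 2.35 ± 0.70 in input. CFLAR (0.52 ± 0.11 in IP, 1.27 ± 0.23 in input) and XIAP (0.52 ± 0.52 in IP, 1.24 ± 0.72 in input) could not be ordered. CASP2 averaged 0.21 ± 0.06 FPKM in IP and 0.50 ± 0.21 in input. CASP9 (0.13 ± 0.18 FPKM in IP, 0.27 ± 0.25 in input), BCL2L11 (0 in IP, 0.23 ± 0.02 in input) and FAS (0.12 ± 0.17 in IP, 0.18 ± 0.14 in input) overlapped one another.

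**Figure D5:**
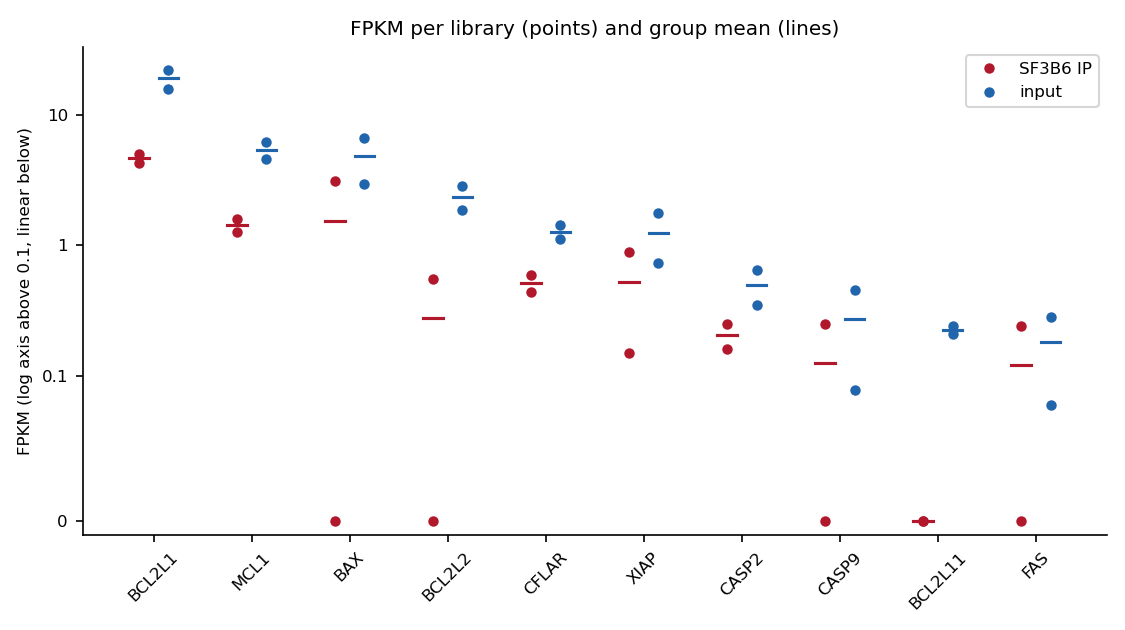
Points are FPKM values of single libraries on the y axis (logarithmic above 0.1, linear below) for the 10 genes on the x axis, with SF3B6 IP left of input and short lines for the group means. IP means are below input means for every gene, from 4.66 against 18.9 FPKM for BCL2L1 to 0.12 against 0.18 FPKM for FAS.

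On the FPKM scale all 6 tested genes had lower values in IP. Depending on the setting 3 or 4 of them were called lower, as were most tested genes. The library totals behind FPKM, recovered from counts and FPKM of the same genes, were 0.298 and 0.197 times that of input 2 in SF3B6 IP 1 and 2, and 0.833 times in input 1. Counts in listed genes per unit of that total were 0.359 and 0.297 times those of input 2 in the IP libraries, and 0.733 times in input 1. The sources used here do not say what these totals contain. With them as library sizes, MCL1 (log2 fold change -1.92 ± 0.67), BCL2L1 (-2.01 ± 0.56), BCL2L2 (-2.80 ± 0.92) and BAX (-1.92 ± 0.81) were called lower (edgeR adjusted p = 0.0136, 0.00309, 0.00970 and 0.0362). These 4 of 6 stand against 57.2% of all tested genes called lower, with a median log2 fold change of -1.92 for the 6 and -1.65 for all. BCL2L2 had passed the filter through the inputs alone. Its calls on this scale, and its part in the 4 of 6 and in the median, are a description and support nothing further. CFLAR (-1.27, edgeR adjusted p = 0.0692) and XIAP (-1.46, 0.0812) did not pass. By limma, the same 4 were called lower on log2(FPKM + 1), beside 69.5% of tested genes, and MCL1, BCL2L1 and BCL2L2 on log2(FPKM + 0.1), beside 50.8%. With plain totals of counts in genes as library sizes 0 of the 6 were called (background 4.09%), and with the replicate number as a block also 0 (2.45%).

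The 5 genes whose profile over the 4 libraries was nearest to that of BCL2L1, the best counted of the 10, were TUBA1B, SIPA1L3, NUMA1, MICAL3 and HM13. Their Euclidean distances on centred log2 CPM were 0.034, 0.046, 0.086, 0.107 and 0.110, among 624 tested genes with summed counts within a factor of 2 of BCL2L1. TUBA1B, a tubulin gene, had 11 and 6 counts in IP against 94 and 160 in input (log2 fold change -0.40 ± 0.34, edgeR adjusted p = 0.622). With only 4 libraries this likeness is a description.

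The other genes of the pathway, 58 in 5 lists, had no member called by the same test. Of these, 51 had a row, 10 were tested and 0 were called (edgeR, adjusted p under 0.05), beside 4.06% of all tested genes, a share at which fewer than 1 of 10 is usual. They had a median log2 fold change of -0.20 against -0.06 for all tested genes. Among other BCL2 family genes 3 of 13 were tested, among them BOK (5 and 3 IP counts, 21 and 41 input counts; log2 fold change 0.55 ± 0.59, edgeR adjusted p = 0.738). BAK1, the partner pore former of BAX, had 2 and 1 counts in IP against 20 and 33 in input (44.0 and 43.6 CPM in IP, 70.4 and 67.3 CPM in input). Among death receptors and adaptors 6 of 15 were tested. TNFRSF1A, the TNF receptor, had 9 and 6 counts in IP against 65 and 136 in input (-0.24 ± 0.38, edgeR adjusted p = 0.854). TNFRSF10B, a TRAIL receptor, had 10 and 4 counts against 61 and 140 (-0.33 ± 0.40, edgeR adjusted p = 0.776).

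Of other IAPs and their antagonists 1 of 8 was tested, the giant ubiquitin ligase gene BIRC6 (7 and 2 counts in IP, 34 and 52 in input) (0.24 ± 0.54, edgeR adjusted p = 0.896). BIRC5, which encodes survivin, had 1 and 0 counts in IP against 13 and 32 in input (pooled ratio 0.252, exact interval 0.00624 to 1.48). None of 6 other caspases and none of 9 apoptosome and mitochondrial effectors could be tested. CASP8, the initiator caspase of the death receptor route, had 1 and 0 counts in IP against 10 and 12 in input. APAF1, the scaffold of the apoptosome, had 1 and 1 counts against 12 and 17, and DFFA, the inhibitor of the caspase-activated nuclease, had 0 and 1 against 12 and 27.

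At an unadjusted p under 0.05 were 2 of the 10 tested pathway genes, near the 15.65% of all tested genes, and they are named here after their values were seen. PIDD1, which encodes the PIDDosome scaffold that activates caspase-2, had 17 and 4 counts in IP against 38 and 73 in input (log2 fold change 1.10 ± 0.39, edgeR adjusted p = 0.126). BBC3, which encodes the BH3-only killer PUMA, had 3 and 3 counts in IP, or 66.1 and 131 CPM, against 4 and 10 counts in input, or 14.1 and 20.4 CPM. It passed the filter through the 2 IP libraries alone, so its difference is a description with no test. BAK1 and TNFRSF10A passed through the 2 inputs alone. Neither PIDD1 nor BBC3 was called over all genes.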

How the data were processed

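RNA recovered with an SF3B6 antibody and input RNA were measured in 2 libraries each. Per the submitters' processing notes HISAT2, HOMER and hg38 were used, with no role or version. The authors deposited read counts per gene, not normalized, and FPKM values of the same genes, in which counts are divided by gene length and a library total. The sources used here do not give the counter, the strand setting or the treatment of reads with several matches.

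IP was compared with input by edgeR 4.0.16 (quasi-likelihood test, R 4.3.3) on the deposited counts over all genes, with TMM (factors 0.968, 0.860, 1.06 and 1.13 for SF3B6 IP 1, SF3B6 IP 2, input 1 and input 2), edgeR's default filter and no covariate. P-values were adjusted by Benjamini-Hochberg and called under 0.05. An SE is the size of the log2 fold change over the square root of its F. Ratios of pooled counts have exact binomial intervals and shares have Wilson intervals, at 95%. The sum over the genes got no p. Nearest genes used log2 CPM with a prior count of 2. Other scalings, DESeq2 1.42.0, limma 3.58.1 on log2(FPKM + 1) and log2(FPKM + 0.1), other filters, single libraries left out and a replicate block were tried.

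The rule for named genes took all 10 genes and, from each pathway list, the 2 with the most counts and any past the threshold. One gene that the rule names is not reported here. The genes and lists were chosen with earlier results of these data known. Coordinates, strands and messenger numbers are from RefSeq (GRCh38.p14), where all 10 symbols matched.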

Additional observations from a re-analysis of the deposited data

How the results depend on the processing

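With TMM 99 genes were higher and 50 lower in IP. Library totals gave 60 and 90, the recovered FPKM totals gave 17 and 2098, DESeq2's own test 37 and 2, no filter 50 and 163, limma on log2(FPKM + 1) 25 and 2548 and on log2(FPKM + 0.1) 25 and 1865, and the replicate block 68 and 22. Without 1 library at a time 26 to 94 were higher and 5 to 70 lower, of 1221 to 6297 tested. DESeq2's size factors gave 116 and 53, upper quartile scaling 67 and 69, and at least 10 counts in 2 libraries 94 and 38. The summed counts of the 10 genes, at -0.13 (log2 ratio of mean CPM, IP over input), were at -1.80 with the FPKM totals, -1.775 and -1.87 on the FPKM scales (pseudocount 1 and 0.1), and from -0.52 to -0.048 without single libraries, lowest without SF3B6 IP 2. Without BCL2L1 the sum was at 0.04 on this measure. Its ratio of pooled counts with TMM was then 0.931 (exact interval 0.660 to 1.28), so the sign depended on the measure.

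Of the single genes, BAX turned to 0.085 with DESeq2's test, and lay between -7.42 (without SF3B6 IP 2, leaving 0 IP counts, so no bound) and 0.95 (without SF3B6 IP 1). CFLAR turned to -1.27 with the FPKM totals, -0.15 with no filter, and -0.58 and -1.16 on the FPKM scales. XIAP turned to -0.059 with upper quartile scaling, -0.15 with library totals, -1.46 with the FPKM totals, -0.40 with no filter, -0.57 and -1.32 on the FPKM scales and -1.73 without SF3B6 IP 2, against 1.10 without SF3B6 IP 1. The median of all tested genes moved too. It was -0.19 with upper quartile scaling, -0.27 with library totals, -1.65 with the FPKM totals and -1.23 with no filter. On the FPKM scales it was -1.05 and -1.66. BCL2L2 turned to 0.31 with its readthrough gene added, and lay between -7.23 (without SF3B6 IP 1, again with 0 IP counts left) and -0.75 (without SF3B6 IP 2). MCL1, BCL2L1 and, as a description only, BCL2L2 were called lower with the FPKM totals and on both FPKM scales. BAX was called lower with the FPKM totals and pseudocount 1. In the other settings run with all libraries, 0 of the tested genes were called: 10 with no filter and 6 elsewhere (with DESeq2's test 3 of the 6 had no adjusted p). The cause was not tested beyond the scaling itself. No pairing by replicate number is stated. Same-numbered deviations had a correlation of 0.000443 over 3668 genes. With a median of 8 counts per tested gene over both IP libraries, this value cannot exclude pairing. The block called 0 of the 6 genes (lowest edgeR adjusted p = 0.676). With 66 IP counts over 10 genes, depth limits every ratio given.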
